A study of Homo sapiens with 12 samples.

Results

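Genes activated by the transcription factor p53 were followed through the siRNA and kinase-inhibitor groups of an RNA sequencing experiment in MCF10A. The 32 p53 target genes examined here were chosen by gene name as commonly described p53 targets, from entries on the primary chromosomes, out of 46931 genes in the table. All 32 passed the filter on low counts, as did 18143 genes in all, and all 32 had counts in every library. MCF10A is an immortalised line of human mammary epithelial cells that is widely used as a non-tumorigenic model, and its genotype is labelled WT. Cells of the group siC_DMSO received 22 nM control siRNA and DMSO, the solvent, and cells of siC_XMU received 22 nM control siRNA and 5 µM XMU-MP1. Cells of siYT_DMSO received 11 nM of siRNA sets directed at YAP and TAZ, together with DMSO, and cells of siYT_XMU received the same siRNAs at 11 nM and 5 µM XMU-MP1. DMSO or XMU-MP1 was added 48 h after transfection and the cells were harvested 6 h later. Each group has 3 libraries, lettered a, b and c by the submitters. XMU-MP1 inhibits MST1 and MST2, the kinases at the head of the Hippo pathway, and YAP (gene YAP1) and TAZ (gene WWTR1) are the coactivators which that pathway restrains. The siRNA doses given for the arms are 22 and 11 nM. Whether 11 nM is the dose of each set or of both together is not stated here, so the total doses may differ. All cells are of 1 line and nothing says that a, b and c were separate cultures. The p-values therefore measure only the spread between these samples.

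p53 is kept low in unstressed cells by MDM2, a ubiquitin ligase whose gene is itself a p53 target, and rises mainly through protein stabilisation when DNA is damaged or growth is disturbed. Stabilised p53 binds response elements made of a pair of decamers and activates genes that halt the cell cycle, repair DNA, change metabolism or kill the cell, and genes that switch p53 off again. In basal epithelial cells its relative p63 (gene TP63) binds closely related elements, so many of these genes can respond to either factor. The files used here hold no protein values. The members are described below by role. These are 3 feedback genes, 5 cell cycle brakes, 8 genes of death receptors and apoptosis, 4 of DNA repair and nucleotide supply, 5 of metabolism, mitochondria and autophagy, and 7 others that act at the surface, are secreted or fit no other role.

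As sequence context for these genes, the RefSeq promoter table (GRCh38.p14), which gives 250 bases before and 50 bases after a start of each gene, was searched for the consensus decamer of p53. The consensus reads the same on both strands, so a single search covers both, and overlapping matches were allowed. Of the 26 members listed there, 8 held at least 1 decamer (30.8%), against 2202 of all 27305 genes (8.06%). A full element, that is 2 decamers with at most 13 bases between them, was found in 1 of the 26 members (3.85%), DDB2, and in 10 genes of the whole table (0.0366%). The other members with a decamer were ABHD4, AEN, FAS, FDXR, PLK2, RPS27L and SESN1. RRM2B, TP53INP1, ASCC3, GADD45A, PHLDA3 and TNFRSF10B were not matched. The full element and the promoters of 4 members whose RNA changed in at least 1 comparison are printed on the strand of the gene, 5′ to 3′, with the decamers in capitals. The element of DDB2 lies just after the start, and for the others the 250 bases before the start are given.
DDB2 (chr11:47214979-47214999, plus strand): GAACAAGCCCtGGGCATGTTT
FAS (chr10:88991181-88991430, plus strand): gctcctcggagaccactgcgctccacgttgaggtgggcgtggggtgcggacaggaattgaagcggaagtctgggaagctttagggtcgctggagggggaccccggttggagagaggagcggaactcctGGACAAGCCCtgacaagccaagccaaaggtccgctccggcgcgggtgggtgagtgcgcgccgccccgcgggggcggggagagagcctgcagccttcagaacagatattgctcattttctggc
AEN (chr15:88621090-88621339, plus strand): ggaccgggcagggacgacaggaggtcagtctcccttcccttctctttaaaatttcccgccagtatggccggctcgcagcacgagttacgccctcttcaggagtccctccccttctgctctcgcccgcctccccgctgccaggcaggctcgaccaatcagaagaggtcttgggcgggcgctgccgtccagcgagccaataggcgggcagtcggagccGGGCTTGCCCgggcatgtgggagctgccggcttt
FDXR (chr17:74872995-74873244, minus strand): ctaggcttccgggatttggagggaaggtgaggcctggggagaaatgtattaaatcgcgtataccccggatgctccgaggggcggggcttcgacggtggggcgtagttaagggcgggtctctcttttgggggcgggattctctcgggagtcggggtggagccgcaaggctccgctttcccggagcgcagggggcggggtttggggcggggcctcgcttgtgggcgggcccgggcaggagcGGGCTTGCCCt
SESN1 (chr6:109008989-109009238, minus strand): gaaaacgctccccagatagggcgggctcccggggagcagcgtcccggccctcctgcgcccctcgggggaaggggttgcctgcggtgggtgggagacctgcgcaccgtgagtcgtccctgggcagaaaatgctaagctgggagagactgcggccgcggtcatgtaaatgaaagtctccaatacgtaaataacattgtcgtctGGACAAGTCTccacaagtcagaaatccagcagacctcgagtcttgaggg
The 2 decamers of DDB2 are 1 base apart, while each of the other 4 promoters holds a single decamer. The starts used by this table lie inside the spans that the deposited table gives for FAS, AEN and SESN1, which have longer transcripts. A match is a run of letters and not a measured binding site, and p53 elements outside these windows, for example in introns, were not searched.

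The siRNAs lowered their targets in every library. In libraries a, b and c, YAP1 was at 201, 223 and 193 CPM in siC_DMSO, 132, 135 and 142 in siC_XMU, 12.6, 9.09 and 7.84 in siYT_DMSO and 6.63, 3.81 and 5.39 in siYT_XMU. WWTR1 was at 34.6, 24.00 and 38.2 CPM in siC_DMSO, 56.9, 60.3 and 55.97 in siC_XMU, 4.296, 4.47 and 3.66 in siYT_DMSO and 2.11, 1.24 and 0 in siYT_XMU, where a count of 0 in library c allows up to 0.622 CPM. The knockdown effects in DMSO and XMU-MP1 were -4.39 and -4.70 on the log2 scale for YAP1 and -2.96 and -5.43 for WWTR1 (edgeR adjusted p at most 0.000511). Here CPM are counts scaled to library size with TMM factors, which assume that most genes do not change. Depth ranged from 8243351 to 67953633 counts, and the shallowest library, siYT_XMU c, stood apart. Its ribosomal RNA took 35.0% of counts against 1.02 to 8.35% in the other 11 libraries, the gene SLCO5A1 took 12.6%, and 15135 genes had counts against 17950 to 20704 elsewhere. Results that lean on it are given with and without it. Epithelial marker genes were present in every library, all 7 of 7, with a summed level of 5588 to 15784 CPM. Of 5 leukocyte markers, PTPRC and CD3E were at 0 in siC_DMSO and siC_XMU and CD3E in siYT_XMU. Their sum was 44.4 to 62.3 CPM in siC_DMSO, 20.0 to 29.8 in siC_XMU, 84.7 to 155.2 in siYT_DMSO and 71.0 to 149 in siYT_XMU. Of the 3 leukocyte markers tested, the knockdown raised 1 in DMSO and 3 in XMU-MP1 (edgeR adjusted p under 0.05). Of all genes tested, 16.1% and 17.7% rose there. The 5 endothelial markers summed to at most 8.49 CPM, and 2 of the 3 tested rose with the knockdown in XMU-MP1. Fibroblast markers (7 genes) summed to 11.4 to 24.3 CPM in siC_DMSO, 17.4 to 29.7 in siC_XMU, 22.8 to 62.0 in siYT_DMSO and 23.2 to 136.3 in siYT_XMU. The part of these marker levels in the results below was not tested. In RNA from whole cultures, fewer cells of a type and less RNA per cell cannot be told apart.

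YAP and TAZ knockdown moved the p53 target genes in both directions, and in XMU-MP1 more of them fell than rose. A gene is called higher or lower where its adjusted p in edgeR's quasi-likelihood test (Benjamini-Hochberg over all 18143 genes tested) is under 0.05. In DMSO, 8 of 32 members fell (CCNG1, BTG2, FAS, TNFRSF10B, EDA2R, DDB2, FDXR and DRAM1) and 6 rose (SFN, PLK3, TP53INP1, PHLDA3, CD82 and SUSD6). That is 43.8% of the members, where 32.1% of all genes tested were called, 16.1% higher and 16% lower. Without siYT_DMSO a the counts in DMSO were equal, 8 higher and 8 lower, with 5048 genes called in all against 5826 with every library. The median log2 fold change of the members was -0.41, against 0.02 for all genes tested. In XMU-MP1 the knockdown lowered 10 members (CCNG1, BTG2, FAS, TNFRSF10B, AEN, XPC, DDB2, RRM2B, FDXR and DRAM1) and raised 4 (SFN, PLK3, TP53I3 and CD82). This again is 43.8% of the members, beside 36.4% of all genes (17.7% higher and 18.6% lower), with medians of -0.33 and 0.04. The members that rose, 6 and 4 of 32, form shares near the background of higher calls, and those that fell form shares above the background of lower calls. The shares were not matched for expression level. All members had counts in every library, but 18143 genes were tested and siYT_XMU c had counts for only 15135.

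The 2 knockdown comparisons, 1 under DMSO and 1 under XMU-MP1, share no library. They do share 1 estimate of the spread and 1 TMM scaling, made from all 12 libraries. In both of them CCNG1, BTG2, FAS, TNFRSF10B, DDB2, FDXR and DRAM1 fell, which is 87.5% of the members that fell in DMSO and 70% of those that fell in XMU-MP1. For all genes the corresponding shares were 69.2% and 59.3%. SFN, PLK3 and CD82 rose in both, which is 50% and 75% of the members that rose, beside 64.5% and 58.7% for all genes. The call of PLK3 in XMU-MP1 was lost with the compared groups only (edgeR adjusted p 0.119). It was also lost without any 1 of the siC_DMSO or siYT_DMSO libraries (edgeR adjusted p 0.0593 to 0.069). No member was called in opposite directions. Without siYT_XMU c the knockdown called 7 members higher and 10 lower in DMSO, adding TP53I3, AEN and RPS27L, at a background of 37% (18.2% higher, 18.8% lower). In XMU-MP1 it then called 6 higher and 9 lower, at a background of 38.1% (19.3% higher, 18.7% lower), with TRIAP1, PHLDA3 and SPATA18 added and PLK3 and RRM2B lost. The 4 rises in XMU-MP1 became 2 without siC_DMSO b or c, siC_XMU b or c, or siYT_DMSO a or c. In those runs 4896 to 6515 genes were called in all, against 6600 with every library.

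XMU-MP1, given for 6 h, moved 8 members with control siRNA and 6 after knockdown. With control siRNA, MDM2, PPM1D, TP53INP1, SESN1 and TIGAR rose and SFN, AEN and DRAM1 fell. These 8 members are 25% of the list, where 9.26% of all genes were called (4% higher and 5.26% lower), and the medians were 0.05 and -0.02. After the knockdown, XMU-MP1 raised only CCNG1 among the 32 and lowered SFN, FAS, AEN, PHLDA3 and ABHD4, which is 18.8% of the members beside 12.1% of all genes (4.19% higher and 7.92% lower), with medians of 0.05 and 0.02. SFN and AEN fell in both arms, which is 66.7% and 40% of the members that fell, beside 35.8% and 23.8% for all genes. No member rose in both, where 29.7% and 28.3% of the rising genes did. Since only CCNG1 was called higher after knockdown, at most 1 member could have been shared. Without siYT_XMU c the counts were 8 higher and 6 lower with control siRNA, at a background of 13.9% (5.9% higher, 7.95% lower). They were 3 higher and 3 lower after knockdown, at a background of 15% (6.65% higher, 8.37% lower). BTG2, FDXR, SUSD6, FAS, EDA2R and TRIAP1 were the additional members with control siRNA. After knockdown GADD45A and FDXR were added and PHLDA3 and ABHD4 lost. The number that rose with control siRNA hung on single libraries. It was 0 without any 1 of the siC_DMSO libraries, without siC_XMU a or b, or without siYT_DMSO c, and 3 without siYT_DMSO b or siYT_XMU a. In the settings with 0 the genes called in all also fell, from 1680 to between 629 and 1372. In those with 3 they were 1447 and 1611. After knockdown the number of members that rose was 0 without any 1 of the siYT_DMSO libraries and 2 without siYT_XMU b. The genes called in all were then 1159 to 1681 and 2096, against 2198 with every library. The 3 falls with control siRNA became 1 without siC_XMU b (629 genes called in all) and 5 without siYT_XMU b (1939 genes). The 5 falls after knockdown became 2 without siYT_DMSO c (1159 genes). They became 3 without any 1 of the siC_DMSO libraries, siC_XMU b or c, siYT_DMSO b, or siYT_XMU a (1357 to 1943 genes). In fits of the compared groups only, XMU-MP1 raised 10 and lowered 7 members with control siRNA, with 4044 genes called in all. The knockdown in XMU-MP1 then raised 2 and lowered 8 members, with 4849 genes called in all. In these fits the calls of PLK3, AEN, TP53I3 and DRAM1 with the knockdown in XMU-MP1 were lost (edgeR adjusted p 0.0687 to 0.119), as were those of CCNG1, SFN, PHLDA3 and ABHD4 with XMU-MP1 after knockdown (adjusted p 0.0946 to 0.172).

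**Figure D1:**
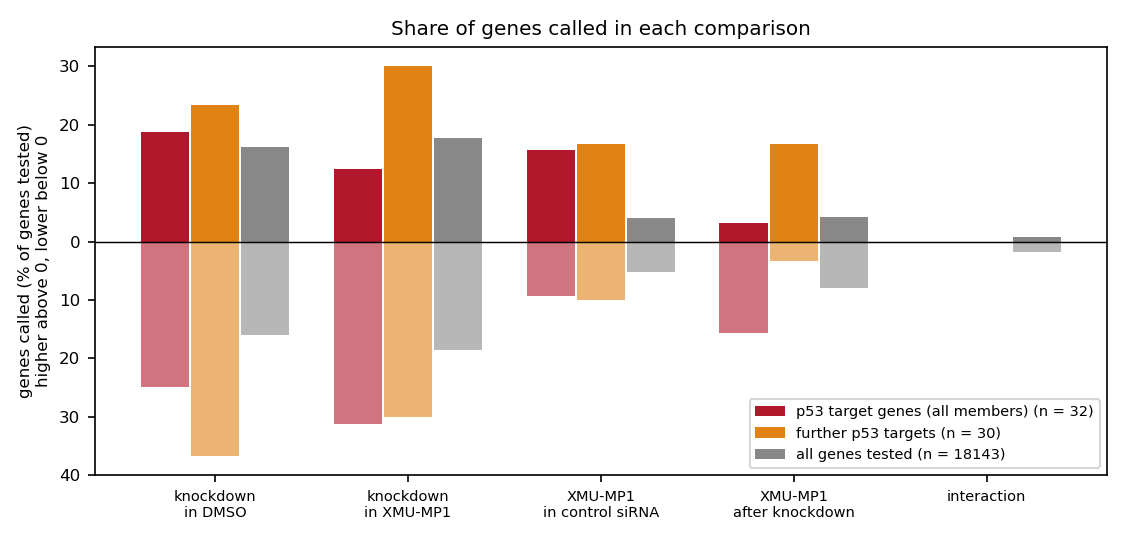
Share of genes called higher (above 0) and lower (below 0), in % of the genes tested, for the 32 p53 target genes, 30 further p53 targets and all 18143 genes tested in each of the 5 comparisons. The bars of members that fell with the knockdown (8 under DMSO, 10 under XMU-MP1) reach further than those of all genes, and no member was called in the interaction.

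The levels of the members span a wide range. On the FPKM scale, which allows for transcript length, SFN led siC_DMSO with 753 ± 35.6 (SD, n = 3), followed by CD82 at 97.1 ± 12.8, TNFRSF10B at 78.99 ± 2.15, NINJ1 at 77.2 ± 14.1 and CCNG1 at 63.1 ± 7.81. TNFRSF10B and NINJ1 lay within each other's spread. The lowest were TP53INP1 at 1.63 ± 0.319, SPATA18 at 2.71 ± 0.4002, SESN1 at 2.97 ± 0.453 and EDA2R at 3.17 ± 0.305 FPKM. Even the lowest single count, 8 for EDA2R in siYT_XMU c, was above the 3 counts that a count of 0 allows. The spread differed between groups. The highest library exceeded the lowest by a median of 1.29 times over the members in siC_DMSO and 1.36 in siC_XMU. The median was 1.40 in siYT_DMSO and 1.83 in siYT_XMU, where 13 members exceeded a ratio of 2. For these 13, except MDM2, PLK2 and PLK3, the lowest library was siYT_XMU c, the shallow one. The ratios are not given without that library or for all genes, so they do not describe these members in particular.

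CCNG1, which encodes cyclin G1, a cyclin that brings a phosphatase to MDM2, fell more than any other member with the knockdown (gene ID 900, chromosome 5, 163437571 to 163446519, plus strand, with positions here and below on GRCh38.p13 counted from 1). In libraries a, b and c it was at 274, 286 and 225 CPM in siC_DMSO, 359.7, 331 and 308 in siC_XMU, 18.9, 21.2 and 20.2 in siYT_DMSO and 40.6, 25.9 and 30.5 in siYT_XMU. All 6 knockdown libraries lay far below all 6 control-siRNA libraries. The difference was 12.99-fold in DMSO, a log2 fold change of -3.70 ± 0.19 (SE, edgeR adjusted p 7.64e-07), and 10.3-fold in XMU-MP1 (-3.36 ± 0.19, adjusted p 1.25e-06). From this low level XMU-MP1 raised it 1.61-fold after the knockdown (0.69 ± 0.18, adjusted p 0.0272), without overlap of libraries. That call was lost without any 1 of the siYT_DMSO libraries or without siYT_XMU a (adjusted p 0.0678 to 0.0978). With control siRNA the rise of 0.35 did not pass (adjusted p 0.256).

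MDM2 and PPM1D were called with XMU-MP1 in control siRNA and in no other comparison. MDM2, the ubiquitin ligase of p53 (gene ID 4193, chromosome 12, 68808149 to 68850686, plus strand), was at 187, 144 and 149 CPM in siC_DMSO, 772, 380.4 and 218 in siC_XMU, 118, 94.7 and 99.6 in siYT_DMSO and 289, 119.5 and 249 in siYT_XMU. The siC_XMU libraries were all above siC_DMSO, but library a was more than 3 times as high as library c. XMU-MP1 raised MDM2 2.86-fold with control siRNA (1.52 ± 0.41, edgeR adjusted p 0.0397). The call was lost without any 1 of the siC_DMSO or siYT_DMSO libraries and without siC_XMU a or b (adjusted p 0.0547 to 0.171). After knockdown the values of siYT_XMU were again above those of siYT_DMSO in every library, with 1.07 ± 0.41 (adjusted p 0.113). The knockdown effects were -0.62 in DMSO (adjusted p 0.277) and -1.06 in XMU-MP1 (adjusted p 0.0598). PPM1D, the phosphatase WIP1 that removes activating phosphates from p53 (gene ID 8493, chromosome 17, 60600187 to 60666280, plus strand), was at 18.4, 18.3 and 17.9 CPM in siC_DMSO, 39.7, 44.6 and 28.01 in siC_XMU, 14.9, 33.7 and 27.3 in siYT_DMSO and 35.4, 35.1 and 40.2 in siYT_XMU. Its 3 siC_DMSO values were nearly equal, and all siC_XMU values lay above them. The rise with control siRNA was 2.06-fold (1.04 ± 0.27, adjusted p 0.0338). It was lost without any 1 of the siC_DMSO libraries, siC_XMU a or b, or siYT_DMSO c (adjusted p 0.0512 to 0.148). A gene on the opposite strand, CPM, overlaps MDM2, and its summed counts were 3.84% of those of MDM2. Whether the counting used strand is not stated.

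**Figure D2:**
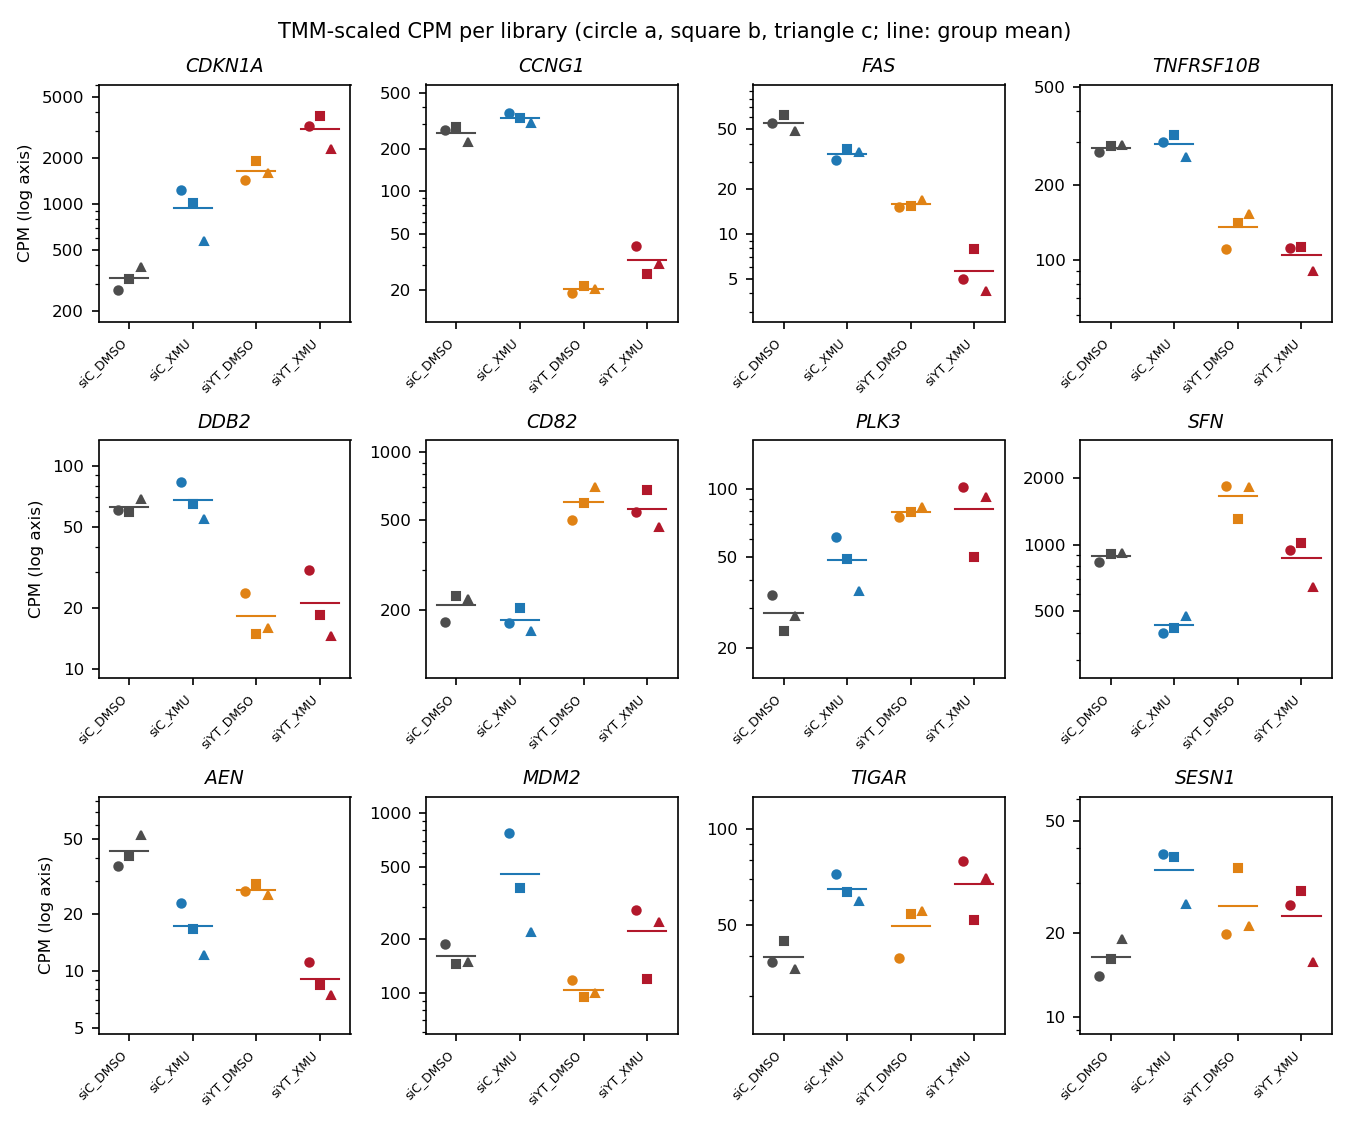
CPM on a log axis in each of the 12 libraries (circle a, square b, triangle c) for CDKN1A and 11 of the 32 p53 target genes, with the group means as lines. CCNG1, FAS, TNFRSF10B and DDB2 are lower in all 6 knockdown libraries, CD82 is higher in them, and AEN is lower in both XMU-MP1 groups.

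The cell cycle brakes split. BTG2, an antiproliferative cofactor of RNA decay (gene ID 7832, chromosome 1, 203305519 to 203309602, plus strand), was at 35.9, 38.3 and 41.8 CPM in siC_DMSO, 81.9, 75.4 and 42.9 in siC_XMU, 14.6, 17.5 and 14.2 in siYT_DMSO and 22.04, 20.03 and 16.2 in siYT_XMU. The knockdown lowered it 2.51-fold in DMSO (-1.33 ± 0.24, edgeR adjusted p 0.00115) and 3.42-fold in XMU-MP1 (-1.77 ± 0.24, adjusted p 0.00018). Libraries a and b of siC_XMU were about as high as each other and c was close to siC_DMSO, and XMU-MP1 gave 0.79 with control siRNA (adjusted p 0.0584, or 0.0405 without siYT_XMU c). SFN encodes 14-3-3 sigma, an epithelial protein that holds cyclin-dependent kinases in the cytoplasm (gene ID 2810, chromosome 1, 26863149 to 26864456, plus strand). It was at 832, 906 and 919 CPM in siC_DMSO, 400.1, 419.8 and 476 in siC_XMU, 1856, 1312 and 1829 in siYT_DMSO and 949, 1023 and 647 in siYT_XMU. The knockdown raised it 1.88-fold in DMSO (0.91 ± 0.21, adjusted p 0.00504) and 2.02-fold in XMU-MP1 (1.02 ± 0.21, adjusted p 0.00256). XMU-MP1 lowered it 2.05-fold with control siRNA (-1.04 ± 0.21, adjusted p 0.00976) and 1.91-fold after knockdown (-0.93 ± 0.21, adjusted p 0.0129) and the siYT_XMU libraries lay on either side of those of siC_DMSO. The fall with control siRNA was lost without siC_XMU b (adjusted p 0.0579) and that after knockdown without siYT_DMSO c (adjusted p 0.0543).

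PLK3, a stress-responsive polo-like kinase (gene ID 1263, chromosome 1, 44799952 to 44805995, plus strand), was at 34.1, 23.8 and 27.6 CPM in siC_DMSO, 61.8, 49.3 and 35.6 in siC_XMU, 75.3, 79.1 and 83.7 in siYT_DMSO and 102, 50.4 and 91.8 in siYT_XMU. It rose 2.78-fold with the knockdown in DMSO (1.48 ± 0.27, edgeR adjusted p 0.00135), where all siYT_DMSO values exceeded all siC_DMSO values. In XMU-MP1 the libraries overlapped, since siYT_XMU b was at 50.4 CPM, and the rise of 0.73 ± 0.27 only just passed (adjusted p 0.0499). That call was lost when any library other than siC_XMU a or siYT_XMU b was left out (adjusted p 0.0593 to 0.182, 0.116 without siYT_XMU c). PLK2, a related kinase, and GADD45A, a stress protein that binds the replication clamp, passed in no comparison. PLK2 was at 13.6, 86.3 and 33.4 CPM in siYT_XMU, where the value of b was more than 6 times that of a. GADD45A was at 33.2 ± 11.7 CPM (SD, n = 3) in siC_DMSO and 59.3 ± 6.88 in siC_XMU, and at 24.1 ± 3.56 and 53.2 ± 34.4 in siYT_DMSO and siYT_XMU. Its XMU-MP1 effect after knockdown was 1.15 (adjusted p 0.0719), and it passed without siYT_XMU c (1.43, adjusted p 0.0242).

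Of the 3 members that are receptors of the tumour necrosis factor family, FAS and TNFRSF10B fell in both knockdown comparisons, and EDA2R in that under DMSO. FAS, the receptor of FAS ligand (gene ID 355, chromosome 10, 88968429 to 89017059, plus strand), whose promoter decamer is printed above, was at 55.4, 62.2 and 48.7 CPM in siC_DMSO, 31.03, 36.8 and 35.3 in siC_XMU, 15.01, 15.4 and 16.9 in siYT_DMSO and 4.99, 7.91 and 4.14 in siYT_XMU. The 4 groups did not overlap, and siYT_XMU was the lowest. The knockdown lowered FAS 3.51-fold in DMSO (-1.81 ± 0.23, edgeR adjusted p 0.000109) and 5.91-fold in XMU-MP1 (-2.56 ± 0.24, adjusted p 1.57e-05). XMU-MP1 lowered it 2.71-fold after the knockdown (-1.44 ± 0.23, adjusted p 0.00242). With control siRNA the difference was -0.69 (adjusted p 0.0788, and 0.0328 without siYT_XMU c). TNFRSF10B on chromosome 8, which encodes the TRAIL receptor DR5, was at 273, 288 and 291 CPM in siC_DMSO, 299, 319.6 and 261 in siC_XMU, 111, 141 and 153 in siYT_DMSO and 112, 112 and 89.9 in siYT_XMU. It fell 2.103-fold in DMSO (-1.07 ± 0.16, adjusted p 0.000339) and 2.796-fold in XMU-MP1 (-1.48 ± 0.16, adjusted p 4.33e-05). XMU-MP1 itself moved it by 0.04 with control siRNA and -0.37 after knockdown, neither of which passed (adjusted p 0.932 and 0.165). EDA2R, the receptor of ectodysplasin A2, was the member with the fewest counts, with 14.02 ± 1.42 CPM (SD, n = 3) in siC_DMSO, 7.03 ± 1.66 in siC_XMU, 5.099 ± 1.49 in siYT_DMSO and 3.55 ± 1.65 in siYT_XMU. It fell with the knockdown in DMSO (-1.46 ± 0.38, adjusted p 0.0107), and in XMU-MP1 the difference of -0.93 did not pass (adjusted p 0.0715). ACTA2 on the opposite strand overlaps FAS and had summed counts that were 42.5% of those of FAS, and RHOBTB2 had 11.9% of those of TNFRSF10B, so reads of these pairs may not be told apart if strand was not used.

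AEN, an exonuclease that takes part in apoptosis (gene ID 64782, chromosome 15, 88604601 to 88632281, plus strand), was lowered by XMU-MP1 in both siRNA arms. It was at 36.4, 40.9 and 52.9 CPM in siC_DMSO, 22.95, 16.8 and 12.1 in siC_XMU, 26.8, 29.1 and 25.3 in siYT_DMSO and 11.2, 8.49 and 7.46 in siYT_XMU, with no overlap between the DMSO and XMU-MP1 libraries of either arm. XMU-MP1 lowered it 2.51-fold with control siRNA (-1.33 ± 0.26, edgeR adjusted p 0.00845) and 2.96-fold after knockdown (-1.57 ± 0.26, adjusted p 0.00297). The knockdown lowered it in XMU-MP1 (-0.92 ± 0.26, adjusted p 0.0157), a call lost without siC_XMU a (adjusted p 0.0637). In DMSO the knockdown effect was -0.68 (adjusted p 0.06, and 0.0453 without siYT_XMU c).

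Of the 5 intracellular apoptosis genes, the knockdown in DMSO raised TP53INP1 and PHLDA3, while TP53I3, AEN and TRIAP1 did not pass there. TP53INP1 on chromosome 8, a stress protein of the p53 and autophagy response, was at 7.01, 10.3 and 7.91 CPM in siC_DMSO, 22.2, 27.1 and 14.2 in siC_XMU, 18.7, 52.5 and 26.9 in siYT_DMSO and 36.98, 27.4 and 24.7 in siYT_XMU. All other groups lay above siC_DMSO, whose highest library was at 10.3 CPM. The rise was 3.897-fold with the knockdown in DMSO (1.96 ± 0.38, edgeR adjusted p 0.0018) and 2.52-fold with XMU-MP1 in control siRNA (1.33 ± 0.37, adjusted p 0.0435). The second call was lost without any 1 of the siC_DMSO libraries, siC_XMU a or b, siYT_DMSO c, or siYT_XMU a or b (adjusted p 0.0504 to 0.175). Where both compared groups also received the other agent, the effects were 0.49 for the knockdown and -0.14 for XMU-MP1 (adjusted p 0.32 and 0.862). NDUFAF6 on the opposite strand overlaps TP53INP1, and its summed counts were 58.2% of those of TP53INP1. PHLDA3, which competes with the kinase AKT at the membrane (gene ID 23612, chromosome 1, 201464278 to 201469188, minus strand), was at 94.7, 86.3 and 84.8 CPM in siC_DMSO, 74.2, 71.00 and 49.2 in siC_XMU, 207, 203 and 199 in siYT_DMSO and 79.9, 152 and 45.4 in siYT_XMU. The siYT_DMSO libraries were tightly grouped above all others, while those of siYT_XMU ranged from 45.4 to 152.4 CPM. It rose 2.29-fold with the knockdown in DMSO (1.20 ± 0.33, adjusted p 0.0155), a call lost without siC_DMSO b or c (adjusted p 0.0547 to 0.0566). XMU-MP1 after knockdown lowered it (-1.13 ± 0.33, adjusted p 0.0462). That call was lost when any library other than siC_XMU a or siYT_XMU b was left out (adjusted p 0.0557 to 0.125, 0.0574 without siYT_XMU c).

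TP53I3, a quinone oxidoreductase also known as PIG3, was at 30.99 ± 4.01 and 31.7 ± 3.48 CPM in siC_DMSO and siC_XMU and at 47.2 ± 5.83 and 51.5 ± 18.7 in siYT_DMSO and siYT_XMU (SD, n = 3). The knockdown raised it in XMU-MP1 (0.71 ± 0.24, edgeR adjusted p 0.0365), and gave 0.61 in DMSO (adjusted p 0.0724, or 0.0289 without siYT_XMU c). The call in XMU-MP1 was lost without any 1 of the siC_XMU libraries, siC_DMSO b or c, siYT_DMSO a or c, or siYT_XMU b (adjusted p 0.0515 to 0.182). TRIAP1, a small mitochondrial protein that restrains apoptosis, was at 39.6 ± 2.96 CPM in siC_DMSO, 26.05 ± 4.16 in siC_XMU, 31.1 ± 6.37 in siYT_DMSO and 38.7 ± 11.7 in siYT_XMU. It passed in none of the comparisons with all 12 libraries, with -0.35 for the knockdown in DMSO (adjusted p 0.304). The effect was -0.60 for XMU-MP1 in control siRNA (adjusted p 0.15) and 0.58 for the knockdown in XMU-MP1 (adjusted p 0.0798). These 2 passed in edgeR without siYT_XMU c (adjusted p 0.0499 and 0.0103).

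The 4 members of DNA repair and nucleotide supply included no gene that rose. DDB2 recognises ultraviolet lesions and carries the only full p53 element found above (gene ID 1643, chromosome 11, 47214942 to 47239218, plus strand). It was at 60.6, 59.5 and 68.9 CPM in siC_DMSO, 83.3, 65.2 and 54.4 in siC_XMU, 23.6, 14.9 and 15.9 in siYT_DMSO and 30.7, 18.5 and 14.5 in siYT_XMU. Every knockdown library lay below every control-siRNA library, and XMU-MP1 left the groups overlapping. The knockdown lowered DDB2 3.48-fold in DMSO (-1.80 ± 0.28, edgeR adjusted p 0.000496) and 3.16-fold in XMU-MP1 (-1.66 ± 0.28, adjusted p 0.00085). XPC, the partner damage sensor of nucleotide excision repair, was at 46.7 ± 10.7 CPM (SD, n = 3) in siC_DMSO, 70.2 ± 8.402 in siC_XMU, 33.1 ± 8.72 in siYT_DMSO and 35.9 ± 4.14 in siYT_XMU. It fell with the knockdown in XMU-MP1 (-0.97 ± 0.23, adjusted p 0.00668), and the difference in DMSO was -0.50 (adjusted p 0.124). RRM2B, a subunit of ribonucleotide reductase that supplies deoxynucleotides for repair, was at 86.2, 107 and 20.1 CPM in siC_DMSO, 119.8, 154 and 121 in siC_XMU, 12.01, 42.5 and 47.6 in siYT_DMSO and 43.2, 33.99 and 42.7 in siYT_XMU. In siC_DMSO, library c was more than 5 times below b, which left that group's spread wide. RRM2B fell with the knockdown in XMU-MP1 (-1.72 ± 0.55, adjusted p 0.0295), and the call was lost without any 1 of the siC_XMU or siYT_XMU libraries (adjusted p 0.0524 to 0.0884). ASCC3, a helicase of alkylation repair, did not pass in any comparison, with means between 119 and 157 CPM in the 4 groups.

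Members of metabolism, mitochondria and autophagy moved with either agent. SESN1 encodes sestrin 1, which restrains mTORC1 signalling (gene ID 27244, chromosome 6, 108984309 to 109094846, minus strand). It was at 13.97, 16.05 and 19.01 CPM in siC_DMSO, 38.2, 37.1 and 25.2 in siC_XMU, 19.8, 33.9 and 21.2 in siYT_DMSO and 25.03, 28.1 and 15.7 in siYT_XMU. XMU-MP1 raised it 2.05-fold with control siRNA (1.04 ± 0.28, edgeR adjusted p 0.0422). After knockdown the libraries overlapped and the difference was -0.11 (adjusted p 0.858). The call was lost without any 1 of the siC_DMSO libraries, siC_XMU a or b, siYT_DMSO c or siYT_XMU a (adjusted p 0.0552 to 0.16). TIGAR, a phosphatase that slows glycolysis (gene ID 57103, chromosome 12, 4321213 to 4360028, plus strand), was at 38.2, 44.7 and 36.5 CPM in siC_DMSO, 72.2, 63.3 and 59.4 in siC_XMU, 39.3, 54.3 and 55.4 in siYT_DMSO and 79.2, 51.7 and 70.4 in siYT_XMU. XMU-MP1 raised it 1.63-fold with control siRNA (0.71 ± 0.20, adjusted p 0.0441), a call lost without any 1 of the siC_DMSO or siC_XMU libraries and without siYT_DMSO b or c (adjusted p 0.061 to 0.164). It was also lost with no filter (adjusted p 0.0637) and with the letters as a replicate block (adjusted p 0.066). After knockdown siYT_XMU overlapped siYT_DMSO, with 0.43 (adjusted p 0.182).

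FDXR, a mitochondrial reductase that feeds electrons to iron-sulfur cluster assembly and steroid synthesis (gene ID 2232, chromosome 17, 74862497 to 74872994, minus strand), was at 45.4, 44.9 and 46.4 CPM in siC_DMSO, 82.5, 74.9 and 65.2 in siC_XMU, 21.4, 22.3 and 18.05 in siYT_DMSO and 41.6, 38.4 and 15.95 in siYT_XMU. Its values were lower in the knockdown groups and, except in siYT_XMU c, higher in XMU-MP1 than in DMSO. The knockdown lowered it 2.21-fold in DMSO (-1.15 ± 0.28, edgeR adjusted p 0.008) and 2.296-fold in XMU-MP1 (-1.20 ± 0.28, adjusted p 0.00587). XMU-MP1 gave 0.70 with control siRNA and 0.65 after knockdown (adjusted p 0.146 and 0.158). Without siYT_XMU c both passed, at 0.70 (adjusted p 0.00706) and 0.96 (adjusted p 0.00277). DRAM1, a lysosomal membrane protein that promotes autophagy (gene ID 55332, chromosome 12, 101877327 to 101923623, plus strand), was at 24.2, 32.3 and 27.2 CPM in siC_DMSO, 12.1, 11.9 and 9.18 in siC_XMU, 7.09, 7.44 and 9.31 in siYT_DMSO and 5.05, 7.33 and 3.11 in siYT_XMU. It fell 3.51-fold with the knockdown in DMSO (-1.81 ± 0.29, adjusted p 0.000606), 2.09-fold with the knockdown in XMU-MP1 (-1.06 ± 0.29, adjusted p 0.0145) and 2.52-fold with XMU-MP1 in control siRNA (-1.34 ± 0.29, adjusted p 0.0151). The call in XMU-MP1 was lost with the compared groups only (adjusted p 0.0687). The last was lost without siC_DMSO b or c or siC_XMU b or c (adjusted p 0.0535 to 0.0757). SPATA18, a mitochondrial quality-control protein, passed in no comparison and lay between 5.40 and 16.3 CPM in the 12 libraries.

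Of the remaining members, CD82 stood out. It encodes a tetraspanin that organises adhesion receptors at the membrane (gene ID 3732, chromosome 11, 44565610 to 44620363, plus strand), and it was at 178, 231 and 224 CPM in siC_DMSO, 176, 205 and 161 in siC_XMU, 503, 596 and 705 in siYT_DMSO and 544, 679 and 467 in siYT_XMU. All 6 knockdown libraries exceeded all 6 control-siRNA libraries. The rise was 2.85-fold in DMSO (1.51 ± 0.20, edgeR adjusted p 0.000132) and 3.12-fold in XMU-MP1 (1.64 ± 0.20, adjusted p 7.97e-05), and XMU-MP1 itself gave -0.22 and -0.09 (adjusted p 0.555 and 0.812). SUSD6, a membrane protein with a sushi domain, rose with the knockdown in DMSO from 44.6 ± 3.604 to 70.3 ± 7.19 CPM (SD, n = 3, 0.66 ± 0.18, adjusted p 0.0153), a call lost without siC_DMSO c or siYT_DMSO c (adjusted p 0.0652 to 0.069). ABHD4, a lipid hydrolase (gene ID 63874, chromosome 14, 22598238 to 22612864, plus strand), was at 28.5, 38.00 and 27.9 CPM in siC_DMSO, 26.04, 38.3 and 35.1 in siC_XMU, 31.9, 70.5 and 52.2 in siYT_DMSO and 18.7, 31.1 and 27.3 in siYT_XMU. XMU-MP1 lowered it after knockdown (-1.01 ± 0.30, adjusted p 0.0468), where siYT_XMU lay below siYT_DMSO by a narrow margin. When 1 library was left out, that call was kept without siYT_DMSO a or siYT_XMU b and was lost without each of the other 10 (adjusted p 0.0531 to 0.187, 0.0665 without siYT_XMU c), and it was lost with RLE size factors (adjusted p 0.0578).

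GDF15, a secreted stress cytokine, had a wide spread within its groups. It was at 109, 30.9 and 20.9 CPM in siC_DMSO, 96.5, 39.8 and 10.1 in siC_XMU, 17.3, 19.2 and 7.89 in siYT_DMSO and 16.3, 19.7 and 2.49 in siYT_XMU. The lowest value of each group was that of library c, and the highest library exceeded the lowest 5.23 times in siC_DMSO, 9.55 times in siC_XMU and 7.91 times in siYT_XMU. The knockdown effects of -1.86 ± 0.86 in DMSO and -1.88 ± 0.86 in XMU-MP1 did not pass (edgeR adjusted p 0.121 and 0.109). NINJ1, which ruptures the membrane of dying cells, RPS27L, a ribosomal protein paralog, and ZMAT3, an RNA-binding protein, also passed in no comparison. NINJ1 went from 93.6 ± 17.5 to 55.4 ± 12.3 CPM with XMU-MP1 in control siRNA (SD, n = 3, -0.76, adjusted p 0.137). RPS27L differed by -0.52 with the knockdown in DMSO (adjusted p 0.0868, and 0.0142 without siYT_XMU c), and reads of its close paralog RPS27 may be shared with it. In all, 23 members (71.9%) were called in at least 1 of the 5 comparisons, the interaction included, beside 50.4% of all genes tested, and 9 (GADD45A, PLK2, TRIAP1, ASCC3, SPATA18, GDF15, NINJ1, ZMAT3 and RPS27L) in none. These shares were not matched for expression level.

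**Figure D3:**
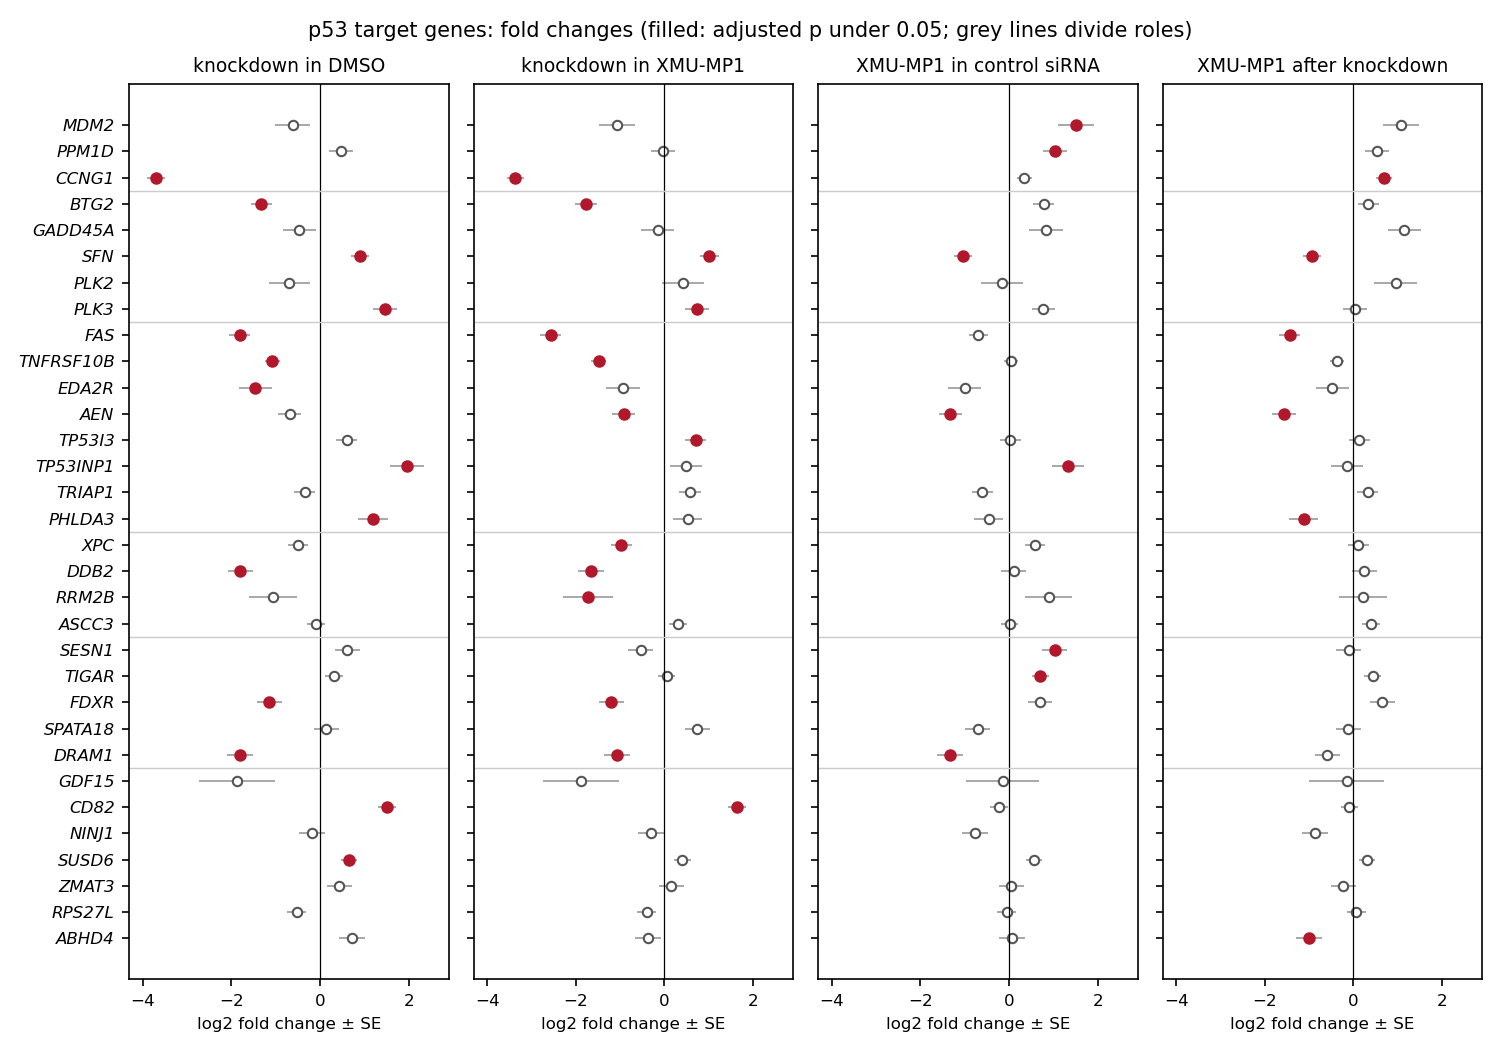
Log2 fold change ± SE of the 32 p53 target genes, ordered by role, in the 4 comparisons of groups, with filled points where the adjusted p is under 0.05. CCNG1 lies at -3.70 and -3.36 in the knockdown comparisons, and GDF15 has the widest errors.

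Whether the knockdown altered the XMU-MP1 effect was tested as an interaction, the XMU-MP1 effect after knockdown minus that with control siRNA. No member passed in edgeR (0 of 32, against 2.59% of all genes, 0.86% higher and 1.73% lower), and 5 (15.6%) had an unadjusted p under 0.05, which is no larger a share than the 18.3% of all genes. They were TP53INP1 (-1.47, adjusted p 0.151), SESN1 (-1.15, adjusted p 0.149), ABHD4 (-1.08, adjusted p 0.19), TRIAP1 (0.93, adjusted p 0.167) and FAS (-0.75, adjusted p 0.235). TRIAP1 passed without siYT_XMU c (1.14, adjusted p 0.041), where 5.24% of all genes were called (2.07% higher, 3.16% lower), and in DESeq2 (adjusted p 0.0278). So members called in 1 siRNA arm only, such as MDM2 with control siRNA, were not shown to differ between the arms. For MDM2 the interaction was -0.44 ± 0.57 (adjusted p 0.754), and for AEN and SFN, which fell in both arms, it was -0.24 ± 0.36 and 0.10 ± 0.29 (adjusted p 0.798 and 0.914).

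**Figure D4:**
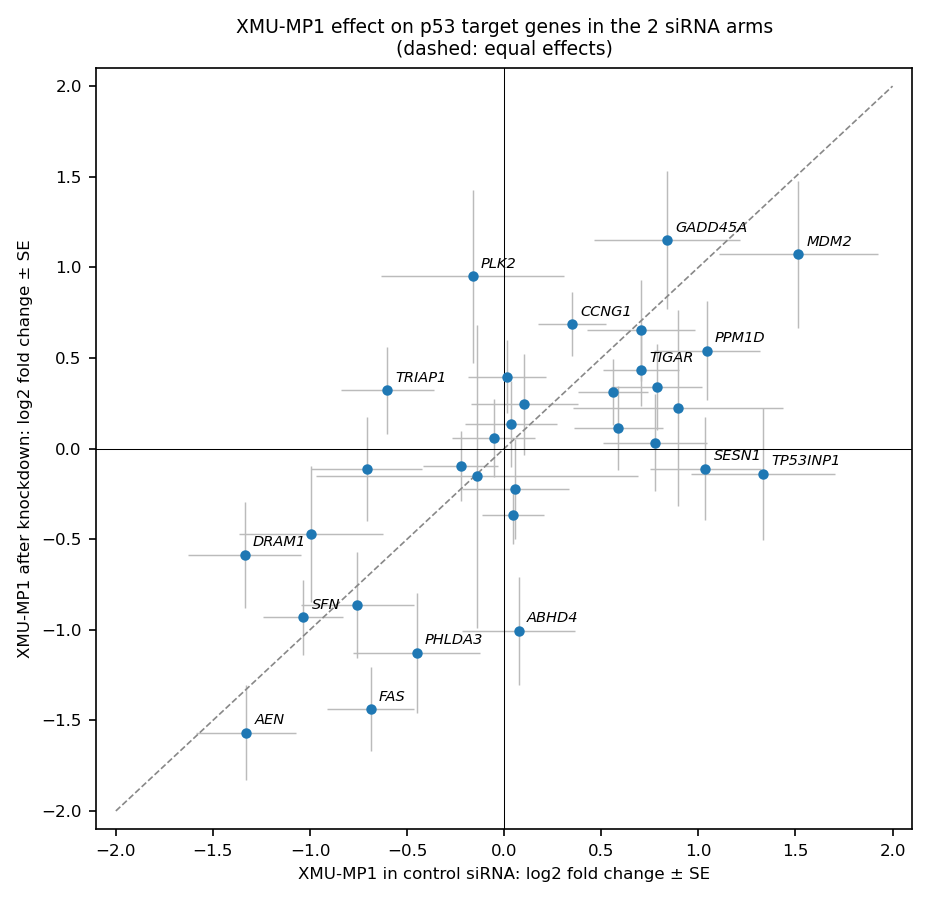
Log2 fold change ± SE by XMU-MP1 after YAP and TAZ knockdown (vertical axis) against that with control siRNA (horizontal axis) for the 32 p53 target genes, with a dashed line of equal effects. AEN and SFN lie in the lower left with falls in both arms, and TP53INP1 and SESN1 lie far to the right near 0 on the vertical axis.

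CDKN1A, which encodes the cell cycle inhibitor p21 and is the best known p53 target, rose. It was at 274, 326 and 392 CPM in siC_DMSO, 1236, 1025 and 577 in siC_XMU, 1441, 1927 and 1596 in siYT_DMSO and 3228, 3785 and 2299 in siYT_XMU in libraries a, b and c. The rises were 5.01-fold with the knockdown in DMSO (2.32 ± 0.30, edgeR adjusted p 0.00012), 3.28-fold with the knockdown in XMU-MP1 (1.71 ± 0.29, adjusted p 0.000804) and 2.86-fold with XMU-MP1 in control siRNA (1.52 ± 0.29, adjusted p 0.00793). After knockdown siYT_XMU lay above siYT_DMSO in every library, with 0.91 (adjusted p 0.0611, or 0.0283 without siYT_XMU c). CDKN1A was thus highest in siYT_XMU, where CCNG1, FAS and DDB2 lay below all their siC_DMSO libraries.

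TP63, whose protein is the p53 relative p63, was at 28.3, 28.8 and 22.4 CPM in siC_DMSO, 3.03, 4.17 and 2.22 in siC_XMU, 23.9, 10.8 and 19.7 in siYT_DMSO and 3.58, 3.25 and 12.4 in siYT_XMU. XMU-MP1 lowered it 8.45-fold with control siRNA (-3.08 ± 0.51, edgeR adjusted p 0.00415). After knockdown the difference was -1.58 (adjusted p 0.0615), and without siYT_XMU c, whose value is the highest of its group, it was -2.41 (adjusted p 0.0033). TP73 was at most 1.87 CPM in any library and passed nowhere with all 12 libraries. MDM4, a partner of MDM2, was at 17.2 ± 6.76 CPM (SD, n = 3) in siC_DMSO, 21.9 ± 6.73 in siC_XMU, 9.21 ± 4.05 in siYT_DMSO and 11.1 ± 3.02 in siYT_XMU and passed in no comparison. CDKN2A, which encodes the MDM2 inhibitor ARF and is named here after its values were seen, had 0 counts in 11 of 12 libraries.

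Of 21 genes of the p53 family and its regulators 20 were tested. The knockdown raised 3 and lowered 4 in DMSO and raised 2 and lowered 6 in XMU-MP1. These are 35% and 40% of those tested, near the background of 32.1% and 36.4% of all genes. The checkpoint kinases CHEK1 and CHEK2 fell in both, CHEK1 by -2.11 and -2.51 and CHEK2 by -1.99 and -1.72 (edgeR adjusted p at most 0.00104). XMU-MP1 raised 2 and lowered 2 with control siRNA, and raised 1 and lowered 5 after knockdown, which is 20% and 30% beside 9.26% and 12.1% of all genes. PPP1R13L, which encodes the p53 inhibitor iASPP, fell in both arms (-2.04, adjusted p 0.000583, and -1.33, adjusted p 0.00309) and rose with the knockdown in XMU-MP1 (1.69, adjusted p 0.000161).

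A list of 30 further p53 targets, all of them tested, was likewise mixed. The knockdown raised 7 and lowered 11 in DMSO, and raised 9 and lowered 9 in XMU-MP1, 60% in each beside 32.1% and 36.4% of all genes. In DMSO the fallen genes included TRIM22 (-2.19, edgeR adjusted p 2.23e-05), an interferon-inducible ubiquitin ligase, KITLG (-2.14, adjusted p 7.6e-05), the ligand of the receptor KIT, and TRAF4 (-1.43, adjusted p 9.46e-05), an adaptor of receptor signalling. In XMU-MP1, TRAF4 (-1.61, adjusted p 4.86e-05) and the repressor E2F7 (-3.85, adjusted p 0.000233) fell, and PLXNB2 (1.34, adjusted p 0.000495), a semaphorin receptor, rose. XMU-MP1 raised 5 and lowered 3 with control siRNA, and raised 5 and lowered 1 after knockdown, 26.7% and 20% beside 9.26% and 12.1% of all genes. TNFRSF10D, a decoy receptor of TRAIL on chromosome 8, rose in both arms (1.57, adjusted p 0.00385, and 2.11, adjusted p 0.000535) and with the knockdown in XMU-MP1 (0.88, adjusted p 0.0172). KITLG rose after knockdown (2.36, adjusted p 0.000265). PMAIP1, which encodes the death protein NOXA, rose there too (1.98, adjusted p 0.00533). No gene of this list passed in the edgeR interaction, where 9 (30%) had an unadjusted p under 0.05, beside 18.3% of all genes.

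Other programs that share genes or timing with p53 moved in the same libraries. Of 10 mitotic genes all fell with the knockdown, by a median log2 fold change of -4.46 in DMSO and -3.89 in XMU-MP1. Of all genes, 16% and 18.6% were called lower in these comparisons. XMU-MP1 raised 0 of the 10 with control siRNA and 1 after knockdown, beside 4% and 4.19% of all genes. A further list of 11 genes was made of ATF4, the amino acid stress factor that also drives some p53 target genes, and of its targets. Of these, 8 were called lower with the knockdown in DMSO (median -2.66) and 7 in XMU-MP1 (median -2.38). None was called higher, although 2 and 1 of them had positive changes. XMU-MP1 raised 2 of the 11 with control siRNA, and raised 3 and lowered 2 after knockdown. Of all genes, 4% and 4.19% were called higher there, and 5.26% and 7.92% lower. The part of these changes in the values of the p53 target genes was not tested.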

How the data were processed

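Polyadenylated RNA of MCF10A was sequenced in 12 libraries as stranded pairs of reads on a NovaSeq instrument, per the labels' protocols. The submitters' processing notes name cutadapt, FastQC, HISAT2, StringTie, edgeR and the build GRCh38.p13, with no versions or settings, and how reads were counted, strand included, is not given in the sources used here. The authors deposited whole-number counts and, beside them, FPKM values for 46931 genes per library, per the file headers. The deposited FPKM were used only to compare levels between genes.

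The counts went into edgeR 4.0.16 (R 4.3.3), with filterByExpr for low counts and TMM for scaling. Its quasi-likelihood model had 1 mean per group, used all 12 libraries and left 8 residual degrees of freedom, at a common dispersion of 0.232. Depth was 8243351 to 67953633 counts per library. P-values are two-sided and adjusted over 18143 genes, log2 fold changes carry a prior count of 0.125, and each SE was derived from that change and its F statistic (change over root F). Levels are TMM-scaled CPM. The floor of a count of 0 (3 counts) covers counting error only. The model was tested on simulated data. Alternatives were no filter, RLE size factors, the letters as a replicate block, a fit to the compared groups only, DESeq2 1.42.0 and leaving out each library.

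The members and all gene lists were chosen with earlier results of these data known. Values of every library are given for MDM2 and for called members without overlap of libraries, up to 8 per comparison by smallest adjusted p. RRM2B, GDF15 and, in 1 group, PLK2 were added for their spread after their values were seen. In the other lists at most 4 called genes of smallest adjusted p per comparison are named, beside YAP1, WWTR1, TP63, TP73, MDM4 and CDKN1A. Lists were described by counts and medians, with no list test. A gene planned for the regulator list and a leukocyte marker are not reported here and were taken out of those lists.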

Additional observations from a re-analysis of the deposited data

How the results depend on the processing

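Of the 42 calls of single members, 24 were kept in every alternative run and 18 were lost in at least 1, and 35 comparisons of members that were not called passed in at least 1. With the compared groups only, the knockdown in XMU-MP1 raised 2 and lowered 8 members with 4849 genes called. XMU-MP1 then raised 10 and lowered 7 members with 4044 genes called in control siRNA, and raised 0 and lowered 2 with 866 genes called after knockdown. DESeq2 called 7 members higher for the knockdown in XMU-MP1 (7765 genes in all against 6600 in edgeR, 53.7% of them higher against 48.8%). It called 7 lower for XMU-MP1 in control siRNA (3056 genes against 1680, 42.7% higher against 43.2%). After knockdown it called 4 higher for XMU-MP1 (3617 genes against 2198, 46% higher against 34.6%). In the interaction it called 1 higher (1783 genes against 470, 48.1% higher against 33.2%). When 1 library was left out, members higher, members lower and all genes called ranged over 4 to 8, 8 to 10 and 4451 to 7099 for the knockdown with DMSO, and over 2 to 6, 8 to 12 and 4896 to 7312 for the knockdown in XMU-MP1. They ranged over 0 to 8, 1 to 6 and 629 to 2661 for XMU-MP1 in control siRNA, over 0 to 3, 2 to 6 and 1159 to 2885 after knockdown, and over 0 to 1, 0 to 0 and 86 to 1006 for the interaction. Members lower with XMU-MP1 in control siRNA were 1 without siC_XMU b, where 629 genes were called in all. Signs turned only for effects not called with all 12 libraries. Among others, they turned without siYT_XMU c for SESN1 (-0.11 to 0.09) and GDF15 (-0.15 to 0.28) with XMU-MP1 after knockdown. For GADD45A, PHLDA3 and PLK2, leaving out 1 library gave a range. For the knockdown in XMU-MP1 it ran from -0.83 (without siYT_XMU b) to 0.13 (without c) for GADD45A, with 0.05 without a, and from -0.047 (without b) to 0.84 (without c) for PHLDA3. For XMU-MP1 after knockdown it ran from -0.0079 (without siYT_XMU b) to 1.38 (without a) for PLK2. The cause of these shifts was not tested. Of 18 correlations of residuals between groups for the same letter, 2 were over 0.1 (-0.02 to 0.17). For 11 of 12 libraries, however, the best correlation was with the own letter. Whether the letters pair the libraries cannot be told from these values. With the letters as a replicate block the members called higher and lower were 7 and 9 for the knockdown with DMSO, 4 and 12 with XMU-MP1, 4 and 4 for XMU-MP1 in control siRNA, 1 and 6 after knockdown and 0 and 0 in the interaction, with 5799, 6402, 1718, 2110 and 471 genes called in all.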
